A study of Rattus norvegicus with 12 samples.

Results

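The genes described here are axon guidance cues and their receptors, as measured in cultures of astrocytes that had been grown from optic nerve heads of rats. The set was given as 10 gene symbols: the Eph receptors Epha2, Epha4 and Ephb2, the ephrins Efna1, Efnb1 and Efnb2, the semaphorin Sema3a, the slits Slit2 and Slit3, and the slit receptor Robo1. A member was taken as every probe set, the group of probes that reads 1 transcript, whose platform annotation carried that symbol. By this rule 8 members were found, with 15 probe sets, among 14217 genes named on the array. Ephb2 and Efnb2 matched no probe set by symbol or gene identifier and are not analysed here. In each gene the probe set that was brightest on average over the 12 arrays led, and there were 4 genes with several probe sets and 4 with only 1.

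Cultures given EGF (epidermal growth factor, which activates its receptor tyrosine kinase) were set against control cultures without it, in 1 experiment at 4 h and in another at 12 h. Each of the 4 groups (control at 4 h, EGF at 4 h, control at 12 h, EGF at 12 h) held 3 arrays of total RNA, and each experiment had controls of its own. No strain, age or EGF dose is given in the sources used here. Nothing states that the replicates were separate cultures, so each p-value reflects only how far these samples spread, which may be technical. In such bulk RNA, fewer cells of a type and less RNA per cell cannot be told apart.

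Ephrins are ligands held at the cell surface, by a lipid anchor in the A class and by a transmembrane segment in the B class, and they bind Eph receptor tyrosine kinases on the neighbouring cell. Binding usually repels the cell or axon that carries the receptor, and the ligand can signal back into its own cell. Semaphorins act through plexins and neuropilins, and slits are secreted proteins that act through Robo receptors. Astrocytes both make and read such cues, and several of them take part in keeping axons out of glial scars and in sorting astrocytes into territories.

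Of the 8 measured members, 7 were bright enough to be tested (mean signal at or above the 40th percentile, 215), and Sema3a was not. After 4 h of EGF, 1 of the 7 tested members rose, Epha2, where 12.8% of all 10261 tested genes rose. None of the 7 fell by limma with Benjamini-Hochberg adjustment, where 19.6% of all tested genes fell. At an unadjusted p under 0.05 the counts of members were again 1 higher and 0 lower. No share of all tested genes was computed at that threshold. After 12 h, Epha2 was higher (16.5% of all tested genes were), and Epha4 and Slit2 were lower (24.2% of all tested genes were). The median log2 fold change of the 7 members was 0.09 at 4 h and -0.39 at 12 h, against -0.17 and -0.09 over all tested genes. These log2 fold changes are on the scale of log2(signal + 24.4), are given with their standard error (SE), and were tested at an adjusted p of 0.05.

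The arrays were not all alike, and this touches the 12 h values most. Both replicate 3 arrays of the 4 h experiment stood apart in their bacterial hybridisation controls, whose mean signal was 8364 with EGF and 9557 without, against at most 116 on the other 10 arrays. The actin ratio, the signal of probes at the 3' end of actin RNA over that of probes at its 5' end, rises where labelled RNA is short. It was 11.1 to 21.7 on 5 of the 12 h arrays (all controls and EGF replicates 1 and 2), 1.24 on the EGF array of replicate 3 and 1.20 to 1.61 at 4 h. Values without these arrays are therefore given beside some of the results. A result printed without such a value may also depend on these arrays.

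The cultures carried the signals of some astrocyte genes and lacked others. The intermediate filament gene Vim (62763 in the 4 h controls), the gap junction gene Gja1 (62981) and glutamine synthetase Glul (6570) were bright. The defining astrocyte genes Gfap (215.3 in the 4 h controls and 200.8 in the 12 h controls) and Aqp4 (75.9 and 88.0) were too dim to be tested. All 8 fibroblast and meningeal markers were tested, and Col1a1 (72051), Col1a2 and Col3a1 were bright in the 4 h controls. Of the 7 astrocyte markers tested, of 13 listed, 1 rose at 4 h, where 12.8% of all tested genes rose. At 12 h, 1 rose and 2 fell, where 16.5% of all tested genes rose and 24.2% fell. Those that fell were Glul (mean 7210 in the controls and 2980 with EGF) and Aldoc. Aldoc read 2655 in the 12 h controls, 31.0 with EGF at 12 h, and 160 and 85.6 in the 4 h control and EGF groups. It passed the filter on dim probe sets through the 12 h controls, so no fold is given. None of the 9 neuron markers was bright enough to be tested.

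Epha2 encodes a receptor for A-class ephrins and was the member that changed at both times. Its signal on the 4 h control arrays was 1439.6, 722.3 and 1022.5, and on the EGF arrays 5931, 6064 and 4567. All 3 EGF arrays lay above all 3 controls. The mean went from 1061 ± 360.2 to 5521 ± 829 (SD, n = 3), a log2 fold change of 2.39 ± 0.29 (limma, adjusted p = 4.62e-05). The EGF to control log2 ratio of the replicate 3 arrays by themselves was 2.13, with no replicate, and without that pair the log2 fold change was 2.53 (adjusted p = 0.00113).

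At 12 h the Epha2 signal was 505.8, 652.7 and 380.1 on the control arrays and 1502, 1676 and 2980.3 on the EGF arrays. The groups again did not overlap, and the highest value came from EGF replicate 3, the array with the low actin ratio. The mean rose from 513 ± 136 to 2053 ± 808 (SD, n = 3), a log2 fold change of 1.92 ± 0.29 (limma, adjusted p = 2.07e-04). Without EGF replicate 3 it was 1.62 ± 0.26 (adjusted p = 1.99e-04). The difference between the effects at 12 h and 4 h was -0.48 ± 0.41 and did not pass (adjusted p = 0.498), so no change of the Epha2 response with time was detected.

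**Figure D1:**
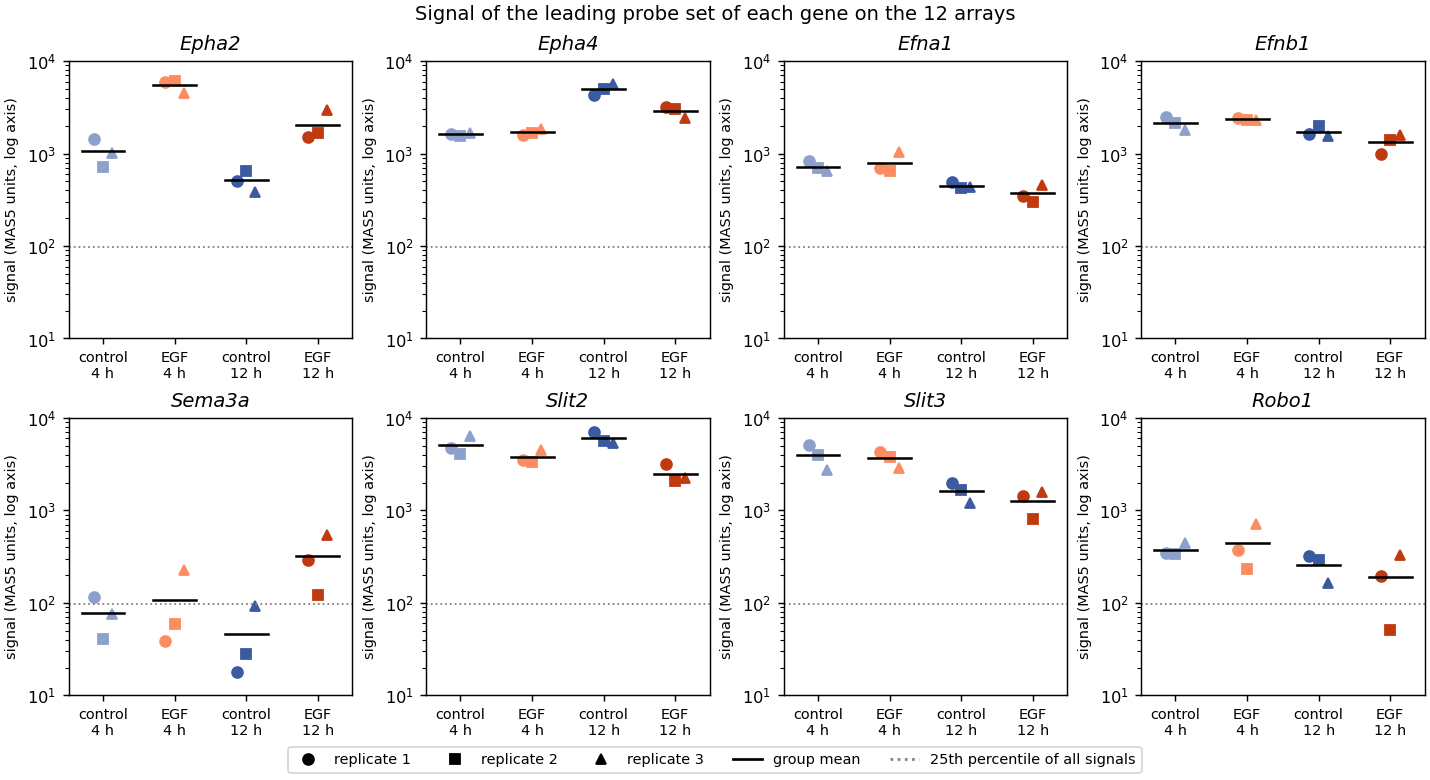
Signal in MAS5 units on a log axis for the leading probe set of the 8 measured genes, with the 3 arrays of each group as points, the group mean as a line and the 25th percentile of all signals (96.8) dotted. Epha2 is the gene whose EGF arrays lie above the controls at both times, Epha4 and Slit2 have lower EGF arrays at 12 h, and Sema3a lies around the dotted line.

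The genes with the pattern over the 12 arrays closest to that of Epha2, by Euclidean distance between centred log2 signals, were Ipo5 (distance 0.96), Pdp1 (1.15) and Tnfaip2 (1.22), where the median distance of all tested genes was 4.98. Their log2 fold changes at 4 h were 2.20, 2.88 and 2.64, and those at 12 h were 2.25, 1.63 and 1.53.

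The promoter windows of Epha2 and of Efna1, the gene of the ligand ephrin-A1 that binds this receptor, are shown because the receptor rose and the ligand did not pass the test. They run from 250 bases before to 50 after the annotated start, 5′ to 3′ on the gene's strand, from RefSeq on the GRCr8 build. The window of Epha2 is chr5:158888379-158888678 on the plus strand, and that of Efna1 is chr2:176986772-176987071 on the minus strand. Capitals mark every match, on either strand, to 6 motifs: the cAMP response element TGACGTCA, the AP-1 site TGANTCA, the ETS site CCGGAAGT, the GC box GGGCGG, the E-box CACGTG, and the serum response factor CArG box.
Epha2: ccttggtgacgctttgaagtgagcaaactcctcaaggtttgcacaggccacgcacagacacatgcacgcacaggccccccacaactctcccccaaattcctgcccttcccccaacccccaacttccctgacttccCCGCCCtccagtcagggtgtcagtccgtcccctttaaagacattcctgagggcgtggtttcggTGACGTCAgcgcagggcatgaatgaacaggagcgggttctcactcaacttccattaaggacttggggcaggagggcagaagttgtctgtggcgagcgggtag
Efna1: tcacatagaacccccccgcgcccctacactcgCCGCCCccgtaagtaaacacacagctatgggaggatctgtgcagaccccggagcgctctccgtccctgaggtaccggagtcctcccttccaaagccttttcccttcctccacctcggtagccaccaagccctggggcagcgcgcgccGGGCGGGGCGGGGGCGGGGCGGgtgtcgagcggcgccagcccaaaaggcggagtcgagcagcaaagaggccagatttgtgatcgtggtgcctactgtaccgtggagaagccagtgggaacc

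The Epha2 window held 1 cAMP response element, 52 bases before the start, and 1 GC box on the other strand. The Efna1 window held 5 GC boxes, of which 2 pairs overlap by their end bases, and no other match. Of 33469 RefSeq windows of this length, 1.83% held the cAMP response element, 33.1% a GC box, 7.33% the AP-1 site, 3.81% the ETS site, 6.42% the E-box and 1.64% the CArG box. A match is a description of the letters and not a measured site. Promoter windows were listed for 7 of the 10 members.

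Epha4, a receptor that binds ephrins of both classes and is known from astrocytes around central nervous system injuries, did not pass at 4 h. Its leading probe set read 1621.5, 1561.3 and 1680.4 on the 4 h controls and 1606, 1675 and 1837 with EGF. These values overlap, and the log2 fold change was 0.07 ± 0.15 (limma, adjusted p = 0.765). At 12 h it read 4349.5, 4995 and 5711 on the controls and 3174, 3002 and 2433 on the EGF arrays. All 3 EGF arrays were below all 3 controls. The mean fell from 5019 ± 681 to 2869.6 ± 387.5 (SD, n = 3), a log2 fold change of -0.80 ± 0.15 (limma, adjusted p = 8.10e-04), and -0.69 ± 0.14 without EGF replicate 3 (adjusted p = 0.00112).

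The fall at 12 h differed from the effect at 4 h in Epha4. The difference was -0.87 ± 0.21 (limma, adjusted p = 0.0158), and Epha4 was the member that passed in this comparison, where 7.45% of all tested genes were lower and 6.55% higher. No member was higher there, with 0 at an unadjusted p under 0.05 as well. The controls of the experiments differed too, and the 12 h controls enter both comparisons. Epha4 was 1.61 ± 0.15 higher on the log2 scale in the 12 h than in the 4 h controls (limma, adjusted p = 6.31e-06), so that the 12 h EGF mean of 2869.6 still lay above the 4 h control mean of 1621. Time and experiment cannot be told apart in that comparison.

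The other probe sets of Epha4 did not all move alike. The second brightest read 6220, 5726 and 5776 on the 12 h controls and 3842, 2636 and 1970.3 on the EGF arrays, a log2 fold change of -1.11 ± 0.19 (limma, adjusted p = 5.71e-04). The third brightest read 382.1, 605.8 and 507.8 against 224.0, 322.9 and 1303.8, and did not pass at 12 h (-0.08 ± 0.47, adjusted p = 0.907). Its highest value lay on EGF replicate 3, the array with an actin ratio of 1.24, while the other EGF arrays lay below the controls. The part of RNA quality in this was not tested. For the difference between the 12 h and 4 h effects, the second brightest passed (-1.13 ± 0.27, limma adjusted p = 0.0176). The third brightest did not (-0.29 ± 0.66, adjusted p = 0.823). The fourth probe set was too dim to be tested, with a mean over the 12 arrays of 178.

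Among the ligands, neither ephrin passed at either time in the fit over all arrays. Efna1 read 833.4, 691.2 and 646.8 on the 4 h controls and 695.0, 648.7 and 1036.2 with EGF, which overlap (0.11 ± 0.24, adjusted p = 0.786). At 12 h it read 489.0, 421.9 and 439.7 on the controls and 350.5, 301.8 and 460.9 with EGF (-0.28 ± 0.24, adjusted p = 0.385). The EGF array that reached into the control range was again replicate 3. At 4 h the sign of the Efna1 value turned without the replicate 3 pair (-0.17, adjusted p = 0.706).

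Efnb1 encodes ephrin-B1, a transmembrane ligand of EphB receptors. Its leading probe set read 2459, 2152 and 1815 on the 4 h controls and 2429, 2318 and 2332 with EGF, a log2 fold change of 0.15 ± 0.19 (limma, adjusted p = 0.606). At 12 h it read 1626, 2009 and 1553 on the controls and 984.6, 1408 and 1592 with EGF. Replicates 1 and 2 lay below all controls and replicate 3 lay among them. The 12 h value was -0.39 ± 0.19 (adjusted p = 0.119). Without EGF replicate 3 it was -0.54 (adjusted p = 0.0305), so this array decides the call.

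The second probe sets of both ephrins differed between the arrays with high and with low actin ratios. That of Efnb1 read 1150.1 to 1709 on the 4 h controls, 118.6 to 177.4 on the 12 h controls, 8.4 and 52.8 on EGF replicates 1 and 2 at 12 h, and 784.7 on EGF replicate 3. That of Efna1 read 516.5 to 615.7 on the 4 h controls, 9.5 to 88.7 on the 12 h controls, 5.1 and 101.1 on EGF replicates 1 and 2, and 252.8 on EGF replicate 3. In both genes the 5 arrays with a high actin ratio were the lowest. That of Efna1 was near background (under 96.8) on all 3 controls at 12 h and was bright enough to be tested through the 4 h arrays, so no size is given for its difference between controls. That of Efnb1 had control means of 1391 at 4 h and 145.9 at 12 h. It too was bright enough to be tested through the 4 h arrays, so no size is given for it either. The leading probe set of Efnb1 differed between the controls by -0.30 ± 0.19 (limma, adjusted p = 0.203). The part of RNA quality in the values between controls was not tested.

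**Figure D2:**
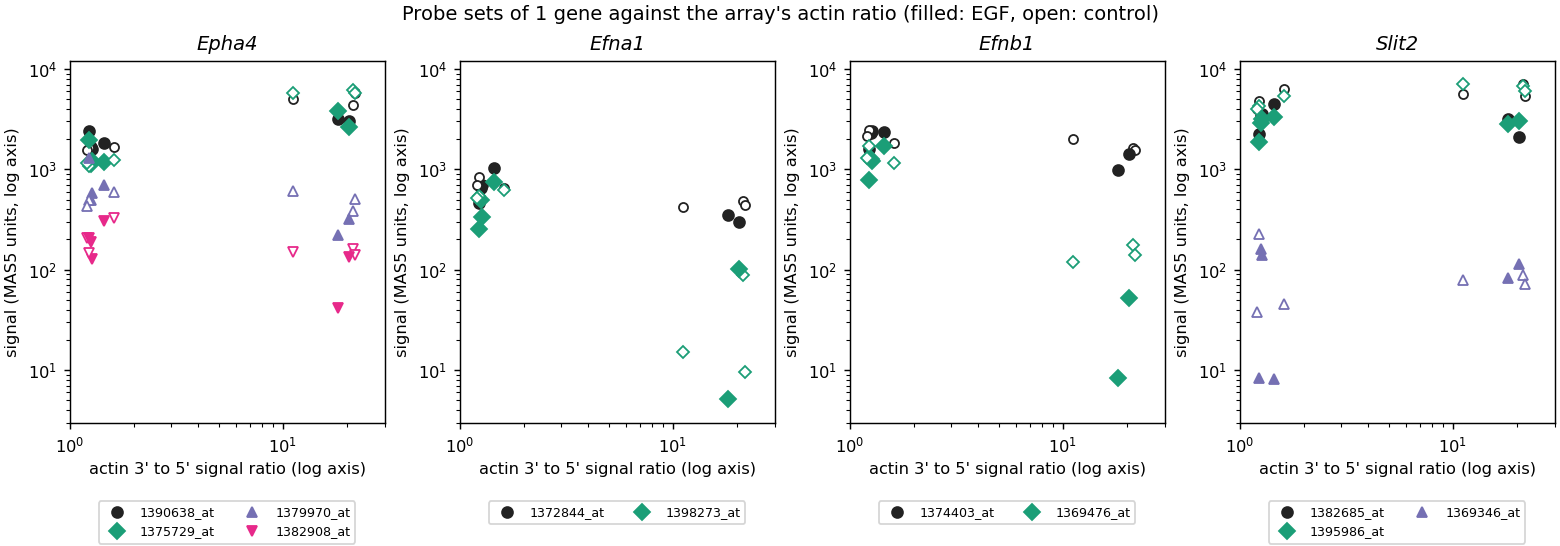
Signal in MAS5 units of every probe set of Epha4, Efna1, Efnb1 and Slit2 against the actin 3' to 5' signal ratio of the array, both on log axes, with EGF arrays filled and control arrays open. The second probe sets of Efna1 and Efnb1 are lowest on the 5 arrays with ratios of 11.1 to 21.7, while the leading ones move less.

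Sema3a encodes a secreted semaphorin that collapses growth cones. It lay near background and was not tested in the fit used elsewhere. Its signal on the 4 h controls was 114.5, 40.4 and 76.5, and 39.1, 59.4 and 225.8 with EGF, which overlap. At 12 h it was 17.9, 28.2 and 92.2 on the controls and 294.4, 121.9 and 537.6 with EGF. The 12 h groups did not overlap, and the control mean was 46.1 ± 40.3 and the EGF mean 318 ± 209 (SD, n = 3). All 3 controls at 12 h lay under the near-background level of 96.8, so no fold is given. The highest EGF value came from replicate 3, and those of the other EGF arrays, 294.4 and 121.9, also lay above the controls.

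Slit2 encodes a secreted ligand of Robo receptors, and its RNA fell at 12 h. Its leading probe set read 7060, 5695 and 5364 on the 12 h controls and 3173, 2100.5 and 2243 with EGF, with no overlap. The mean went from 6039 ± 899 to 2505 ± 582 (SD, n = 3), a log2 fold change of -1.27 ± 0.20 (limma, adjusted p = 2.79e-04). Without EGF replicate 3 it was -1.21 (adjusted p = 3.69e-04). The second probe set moved alike, from 6726, 7123 and 6029 to 2851, 3044 and 1869, a log2 fold change of -1.38 ± 0.18 (adjusted p = 5.94e-05). The third was too dim to be tested.

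At 4 h Slit2 read 4758, 4034 and 6343 on the controls and 3550.5, 3373 and 4533 with EGF. The ranges overlapped by the EGF array of replicate 3, and within each replicate number the EGF array was the lower. The log2 fold change was -0.39 ± 0.20 (limma, adjusted p = 0.179). It passed with the replicate number as a block (adjusted p = 0.0416) and with the second probe set (-0.55 ± 0.18, adjusted p = 0.0381), whose groups did not overlap. The difference between the 12 h and 4 h effects of Slit2 was -0.89 ± 0.29 and did not pass (adjusted p = 0.0627). It passed in 6 of 24 alternatives, including the replicate block (adjusted p = 0.0141), and not in the other 18. That block also pairs the 12 h arrays, where the replicate numbers were not found to pair them.

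Fibroblast markers moved at 12 h as well. Of the 8, 6 fell and 1 rose, where 24.2% of all tested genes fell and 16.5% rose at 12 h. Their summed signal was 264479 to 310402 on the 12 h controls and 184979 to 280763 with EGF, with none of the 8 near background. Markers of the oligodendrocyte lineage summed to 12840 to 14048 on the 12 h controls and 6167 to 7517 with EGF, with 3 of 5 tested members lower and 1 higher, while Olig1, Olig2 and Sox10 were too dim to be tested. At 4 h these markers were lower as well, with 9859 to 10489 on the controls and 5536 to 6354 with EGF. Of the 5 tested, 3 fell at 4 h, where 19.6% of all tested genes fell. The part of these cell types in the falls of Slit2 and Epha4 was not tested.

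Slit3 and Robo1 did not pass at either time. Slit3, a second secreted slit, read 5120.4, 4009 and 2741 on the 4 h controls and 4256.5, 3798 and 2890.1 with EGF (-0.09 ± 0.28, limma adjusted p = 0.854). At 12 h it read 1996, 1677 and 1213 on the controls and 1424, 815.4 and 1595 with EGF (-0.37 ± 0.28, adjusted p = 0.331). The ranges overlapped at both times. Robo1, a receptor for slits, ran from 341.0 to 443.1 on the 4 h controls and from 234.9 to 711.1 with EGF (0.09 ± 0.53, adjusted p = 0.924). It ran from 164.2 to 322.6 on the 12 h controls and from 50.5 to 329.7 with EGF (-0.61 ± 0.53, adjusted p = 0.394). With an SE of 0.53, small changes in Robo1 were not detectable with these arrays.

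Between the controls, 1 member was higher at 12 h, Epha4 (28.4% of all tested genes were), and 3 were lower (16.6% were). The lower ones were Slit3 (-1.25 ± 0.28, limma adjusted p = 0.00332), Epha2 (-0.99 ± 0.29, adjusted p = 0.0145) and Efna1 (-0.65 ± 0.24, adjusted p = 0.0388). For Epha2 the value did not pass without control replicate 1 at 4 h (-0.75, adjusted p = 0.0713) or without control replicate 3 at 12 h (-0.80, adjusted p = 0.0677). For Efna1 it did not pass when any 1 of the 6 control arrays was left out (adjusted p from 0.0505 to 0.132). The 12 h controls had high actin ratios and the 4 h controls did not, so this difference cannot be told apart from that of the experiments.

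**Figure D3:**
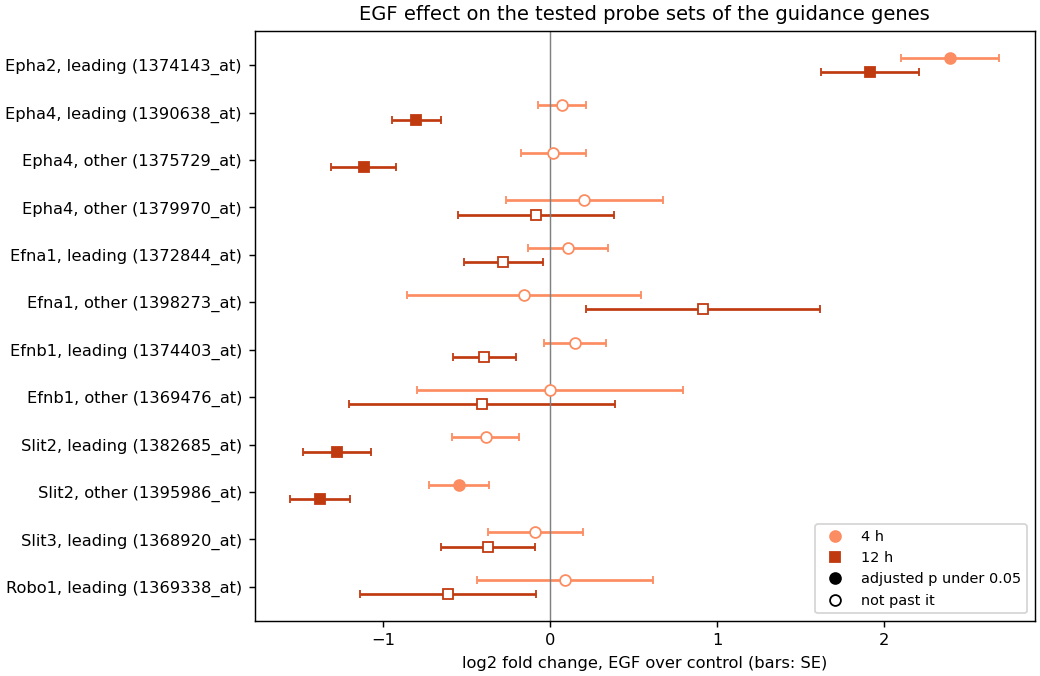
Log2 fold change of EGF over control with its SE for the 12 tested probe sets of the 7 tested genes, at 4 h (circles) and 12 h (squares), filled where the adjusted p is under 0.05. Epha2 is right of 0 at both times, and 2 probe sets each of Epha4 and Slit2 are left of 0 and filled at 12 h.

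The rest of the guidance system was read from lists of 112 other genes, of which 96 were measured and 77 tested. At 4 h, 8 of the 77 rose and 16 fell, where 12.8% of all tested genes rose and 19.6% fell, and their median log2 fold change was -0.29 against -0.17 over all tested genes. The 4 h counts are near that background. At 12 h, 17 rose and 28 fell, where 16.5% of all tested genes rose and 24.2% fell, and the median was -0.16 against -0.09. The counts of the single lists that follow are to be read against the same shares, where the p was adjusted. No share of all tested genes was computed at an unadjusted p, so the unadjusted counts have no such background. The count at 4 h was 10 higher and 29 lower where the fit held a block for the arrays described as standing apart. That fit called more of everything, so the shares above are not its background. Of all 18625 tested probe sets it called 3103 higher and 4960 lower at 4 h, against 2118 and 3068 without the block.

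Of the 5 other Eph receptors tested, none passed at 4 h by limma (0 higher and 2 lower at an unadjusted p under 0.05), and 2 fell at 12 h. Epha3, a receptor for A-class ephrins, went from 2295 ± 461 to 316 ± 102 (SD, n = 3), a log2 fold change of -2.79 ± 0.28 (limma, adjusted p = 5.18e-06). The kinase-inactive receptor Ephb6 fell by 1.11 ± 0.33 on the log2 scale (adjusted p = 0.0174), and did not pass without control replicate 1 or 2 at 12 h (adjusted p = 0.0576 and 0.0641). Epha6, Ephb3 and Ephb4 did not pass at either time. Of the 3 other ephrins tested, none passed at 4 h (0 higher and 1 lower unadjusted), and Efnb3 and Efna4 fell at 12 h. Efnb3, a transmembrane ephrin, went from 3936 ± 605 to 298 ± 217 (-4.00 ± 0.56, adjusted p = 1.04e-04) and Efna4 fell by 1.01 ± 0.23 (adjusted p = 0.00372). Efna5 did not pass at 12 h (0.16 ± 0.20, adjusted p = 0.558).

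Of the 14 other semaphorins tested, 1 rose and 4 fell at 4 h (12.8% and 19.6% of all tested genes), and 3 rose and 8 fell at 12 h (16.5% and 24.2%). Sema4b, a transmembrane semaphorin, rose from 664 ± 74.3 to 6322 ± 1099.5 at 4 h (3.19 ± 0.19, limma adjusted p = 7.17e-08). Sema6d fell from 3434 ± 187 to 842 ± 92.4 at 4 h (adjusted p = 3.11e-07), and Sema4g fell as well (-1.37 ± 0.23). At 12 h Sema3e (-2.58 ± 0.23), Sema5a (-1.42 ± 0.15) and Sema6d (-1.36 ± 0.14) were lower, with adjusted p values up to 1.18e-05.

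Of the 9 plexins and neuropilins tested, which are the semaphorin receptors, 1 rose and 3 fell at 4 h, and the counts at 12 h were also 1 and 3. Nrp1, a co-receptor for Sema3a, was lower at 4 h (-0.85 ± 0.19, adjusted p = 0.00389) and higher at 12 h (0.69 ± 0.19, adjusted p = 0.0103). Its 12 h value was 0.45 without control replicate 1 (adjusted p = 0.0466). The fall of Nrp1 at 4 h did not pass without the replicate 3 pair (adjusted p = 0.0524). Nrp2 (-0.96 ± 0.19 and -1.60 ± 0.19) and Plxnb1 (-1.06 ± 0.25 and -1.79 ± 0.25) fell at both times. Robo2 and the Slit-Robo GAP gene Srgap2 were the 2 tested members of the slit list, and neither passed at either time (limma, 0 at an unadjusted p under 0.05).

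Of the 5 netrin genes and netrin receptors tested, 0 rose and 2 fell at 4 h (0 and 4 unadjusted), and 2 rose and 3 fell at 12 h. Ntng1, a membrane-anchored netrin, fell at both times (-1.06 ± 0.16 and -3.71 ± 0.16, adjusted p = 3.20e-04 and 3.00e-09). The netrin receptor gene Unc5c was the other that fell at 4 h (-0.86 ± 0.25, adjusted p = 0.0213). It did not pass without the replicate 3 pair (adjusted p = 0.0745), without EGF replicate 2 or 3 or control replicate 1 (adjusted p = 0.0503 to 0.101), with quantile normalisation (adjusted p = 0.0704) or in a fit of the 4 h arrays only (adjusted p = 0.0554). Unc5b, another netrin receptor gene, rose at 12 h (0.82 ± 0.17) and Unc5c fell (-1.18 ± 0.25). Of the 32 cytoplasmic transducers tested, 3 rose and 7 fell at 4 h, and 8 rose and 9 fell at 12 h. Rnd1, whose product binds plexins, rose at 4 h (2.11 ± 0.24), and Rnd3 (-1.60 ± 0.17) and the kinase Pak1 (-0.79 ± 0.13) fell. The ephexin gene Ngef, an exchange factor that binds EphA receptors, read 45.7 ± 46.3 in the 12 h controls and 764 ± 152 with EGF (SD, n = 3) and was called higher at 12 h. It passed the filter on dim probe sets through the 12 h EGF arrays, and its controls lay near background, so no fold is given. Both Rnd3 (-1.29 ± 0.17) and Pak1 (-1.26 ± 0.13) fell at 12 h too. Of the 7 sheddases and binding partners tested, 3 rose and 0 fell at 4 h (3 and 0 unadjusted), and 3 rose and 1 fell at 12 h. The proteoglycan gene Sdc1 rose at both times (3.39 ± 0.13 and 3.99 ± 0.13), Gpc1 fell at 12 h (-2.10 ± 0.23), and the protease genes Mmp14 (0.51 ± 0.13, adjusted p = 0.0109) and Adam17 (0.74 ± 0.20, adjusted p = 0.0157) rose at 4 h. Mmp14 did not pass without the replicate 3 pair (0.38, adjusted p = 0.0817) or without EGF replicate 2 (adjusted p = 0.0515), and Adam17 without EGF replicate 2 or control replicate 1 or 2 (adjusted p = 0.0541 to 0.0634). The related protease gene Adam10, whose product cleaves ephrins, rose at 12 h (1.28 ± 0.34, adjusted p = 0.00986). Without EGF replicate 3 its value was 0.75 (adjusted p = 0.00756).

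**Figure D4:**
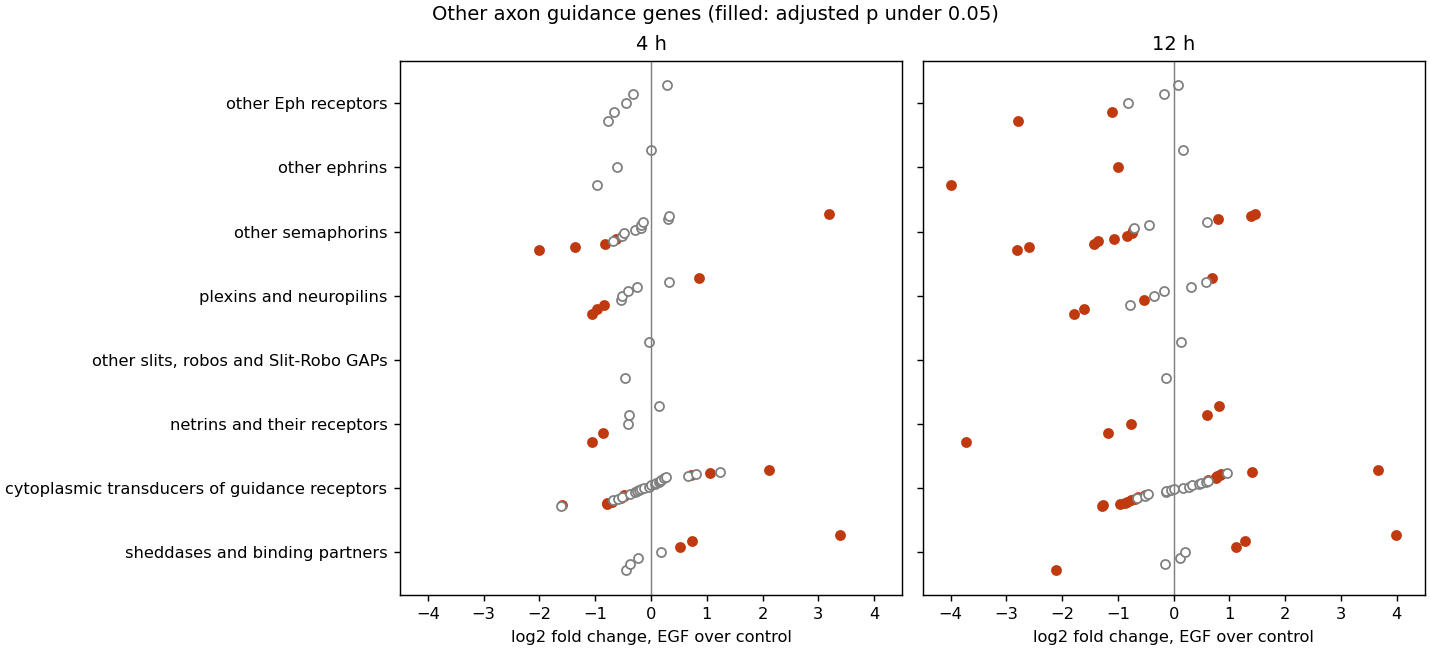
Log2 fold change of EGF over control for the 77 tested genes of the 8 other guidance lists at 4 h (left) and 12 h (right), each point a gene, filled where the adjusted p is under 0.05. More genes are filled at 12 h (17 higher, 28 lower) than at 4 h (8 higher, 16 lower), and the ephrin and Eph receptor lists have filled points at 12 h below 0 only.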

How the data were processed

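The deposited files hold 1 linear intensity per probe set and array. The authors used MAS5, per the submitters' processing notes (the sources used here give no version). With 2% trimmed from each end, the mean signal of the arrays was 1500.46 to 1500.56, so they had been scaled alike and were not rescaled. Of 31099 probe sets, 57 controls and 12417 dim ones were left out and 18625 were tested. Group means of log2(signal + 24.4), the offset being the 10th percentile of all signals, were fitted over all 12 arrays with limma 3.58.1 in R 4.3.3 (empirical Bayes, intensity trend, 8 residual degrees of freedom, two-sided, Benjamini-Hochberg over all tested probe sets). All adjusted p values are from this tool, which was tested on simulated data. Precision is limited by having 3 arrays in a group (median SE 0.23). Genes were named from the platform annotation. Grouping followed the titles, because every sample is described as control.

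In the other lists, up to 3 genes with the smallest p at each time were named, and lists of up to 5 tested genes may be named in full. The members and lists were chosen with earlier results of these data known. EGF and control arrays of the same replicate number correlated, after removal of group means, at 0.121, 0.150 and 0.376 at 4 h and at 0.0826, -0.111 and -0.103 at 12 h, so by the rule that every pair exceed 0.1 the numbers pair the arrays at 4 h and not at 12 h. At 4 h the pairing rests on replicate 3, since replicates 1 and 2 correlated about as well across numbers (0.142 and 0.138). Alternatives were other offsets, filters, scalings and probe sets, a block for the replicate number or for the sets of arrays that stand apart, and leaving out arrays. The limits that set arrays apart (hybridisation signal over 1000, actin ratio over 5) and the fit without all 3 such arrays were set with the data known. Figures were drawn with matplotlib 3.10.9.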

Additional observations from a re-analysis of the deposited data

Results flagged for a closer look

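The effect of EGF differed between 12 h and 4 h, by limma's test of the difference with Benjamini-Hochberg adjustment, in Epha4 and in 9 of the other guidance genes named above. Those 9 are among genes named for a small p at 4 h or 12 h in these same data, so their number is not a result. Over all 77 other guidance genes tested, this difference was higher in 3 and lower in 11. Of all tested genes, 6.55% were higher and 7.45% lower. In Epha4 the difference was -0.87 ± 0.21 on the log2 scale (adjusted p = 0.0158), with effects of 0.07 at 4 h and -0.80 at 12 h. The 12 h effect was lower in Epha3 (-2.13, adjusted p = 0.00402), Efnb3 (-3.03, adjusted p = 0.0256), Sema3e (-2.07, adjusted p = 0.00151), Ntng1 (-2.65, adjusted p = 1.80e-05) and Gpc1 (-1.65, adjusted p = 0.00647). Sema4b (-1.73, adjusted p = 0.00124) and Rnd1 (-1.33, adjusted p = 0.0207) rose at both times and less at 12 h. The 12 h effect was higher in Nrp1 (1.54, adjusted p = 0.00223), where the sign turned, and in Unc5b (1.20, adjusted p = 0.00585). These are effects in separate experiments, whose arrays also differ in their actin ratios.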

How the results depend on the processing

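Of 1718 values recomputed over 73 results and 24 alternatives, 1641 were labelled the same and 26 lost the call. A further 17 gained it, 16 turned sign and 18 were counts that moved. The same means an unchanged direction and call for a fold change, whose size was not compared, and a similar size for a count. The rise of Epha2 and the fall of Slit2 at 12 h passed under every alternative, and the fall of Epha4 under all but 1 probe set. Paired by replicate number, EGF changed 5220 probe sets at 4 h and 6850 at 12 h, and with this replicate block, or the set of arrays as a block, 2 members in place of 1 passed at 4 h, the other being Slit2. The set of arrays as a block called 8063 probe sets at 4 h in place of 5186, and 4092 for the difference between times in place of 2153. That difference gave 3539 without all 3 arrays that stand apart and 1419 to 2955 with any 1 array left out (1419 without control replicate 2 at 4 h and 1423 without control replicate 1 at 12 h). Centring on the median moved the split at 4 h from 2118 higher and 3068 lower to 2477 and 2189, and at 12 h to 3436 and 3091.

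Signs turned only for members that did not pass, apart from Epha4 between controls with another probe set (-0.0402). With the second probe set Efna1 gave 0.92 ± 0.70 at 12 h, -0.16 ± 0.70 at 4 h and 1.08 ± 0.99 for the difference. Efnb1 gave -8.94e-04 at 4 h with its second probe set. That of Efna1 was near background (under 96.8) on all its 12 h controls, at 88.7, 15.3 and 9.5. The 0.92 and 1.08 rest on these controls and are not to be read as sizes of an effect. Without the replicate 3 pair, with or without EGF replicate 3 at 12 h, Efna1 gave -0.17 and Robo1 -0.19 at 4 h. Leaving out EGF replicate 3 at 4 h gave -0.0967 for Efna1, -0.31 for Robo1 and 0.0687 for Slit3 at 4 h. Slit3 at 4 h also gave 0.12 without control replicate 1 and 0.0186 with median centring. Without EGF replicate 2 at 12 h, Robo1 gave 0.0229 at 12 h and Slit3 0.00757 for the difference. With 1 array left out, the values ran from -0.0967 to 0.23 for Efna1 at 4 h, -0.31 to 0.44 for Robo1 at 4 h, -1.10 to 0.0229 for Robo1 at 12 h, -0.33 to 0.12 for Slit3 at 4 h and -0.49 to 0.00757 for its difference. The cause was not tested. Blocks could not be fitted between controls, since they lie within a time. Dim probe sets such as that of Sema3a limit what these arrays can show.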

Other observations

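Between the controls, which differ in experiment as well as in time, 25 of the 77 other guidance genes were higher at 12 h and 19 lower by limma, where 28.4% of all tested genes were higher and 16.6% lower. Efnb3 was 2.95 higher on the log2 scale (adjusted p = 0.00116), Unc5c 2.46 (adjusted p = 1.58e-05) and Epha3 2.24 (adjusted p = 7.22e-05). In Epha3 the mean signal was 470 ± 115 in the 4 h controls, 2295 ± 461 in the 12 h controls and 316 ± 102 with EGF at 12 h, and in Efnb3 it was 496 ± 127, 3936 ± 605 and 298 ± 217 (SD, n = 3). The 12 h controls enter both comparisons of these genes, which were singled out after their values were seen.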
